A study of Mus musculus with 4 samples.

Results

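The genes followed here are 10 mouse genes that make and load peptides for MHC class I, out of 32285 genes counted in each library. The members were chosen by gene symbol: the immunoproteasome subunits Psmb8, Psmb9 and Psmb10, the proteasome activator subunits Psme1 and Psme2, the peptide transporter subunits Tap1 and Tap2, the loading factors Tapbp and Tapbpl, and the trimming peptidase Erap1. They were measured in pancreatic tumours (PDAC, pancreatic ductal adenocarcinoma) of 4 mice of the strain B6/129 F1J. All tumours carried the cell line label KPC46 organoid, so both groups share 1 tumour line. The groups compared were 2 libraries from mice that received TAK-981 (Subasumstat), an inhibitor of the enzyme that starts SUMO conjugation, and 2 libraries from mice that received its vehicle (Cremophor). Each tumour was dissociated to single cells and gave 1 droplet library, so n = 2 mice per group. Age, sex, dose and time of treatment are not given in the sources used here. Cells below a viability limit went through dead cell removal before loading, and which samples did so is not given in the sources used here.

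The proteasome cuts cytosolic proteins into peptides, and in immune and interferon-exposed cells 3 of its catalytic subunits are exchanged: Psmb8 takes the place of Psmb5, Psmb9 that of Psmb6 and Psmb10 that of Psmb7. A ring built from Psme1 and Psme2 (PA28 alpha and beta) opens the proteasome from its end. The transporter made of Tap1 and Tap2 moves peptides into the endoplasmic reticulum, where Erap1 trims them and Tapbp (tapasin) and Tapbpl load and exchange them on class I molecules, which then show them to CD8 T cells.

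In the GRCm38 annotation, Psmb9 (chr17:34181987-34187764, minus strand), Tap1 (chr17:34187553-34197225, plus strand), Psmb8 (chr17:34197721-34201454, plus strand) and Tap2 (chr17:34203527-34216321, plus strand) are neighbours in the MHC region of chromosome 17. Tapbp lies at chr17:33915899-33929292 on the plus strand of the same chromosome. Psme1 (chr14:55578123-55581529, plus strand) and Psme2 (chr14:55587441-55591113, minus strand) are neighbours on chromosome 14. Psmb10 lies at chr8:105935735-105938444 (minus strand), Tapbpl at chr6:125223933-125231860 (minus strand) and Erap1 at chr13:74639568-74693201 (plus strand). The map of the chromosome 17 genes shows that Psmb9 and Tap1 start head to head and that their gene models overlap at the 5′ ends.

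**Figure D1:**
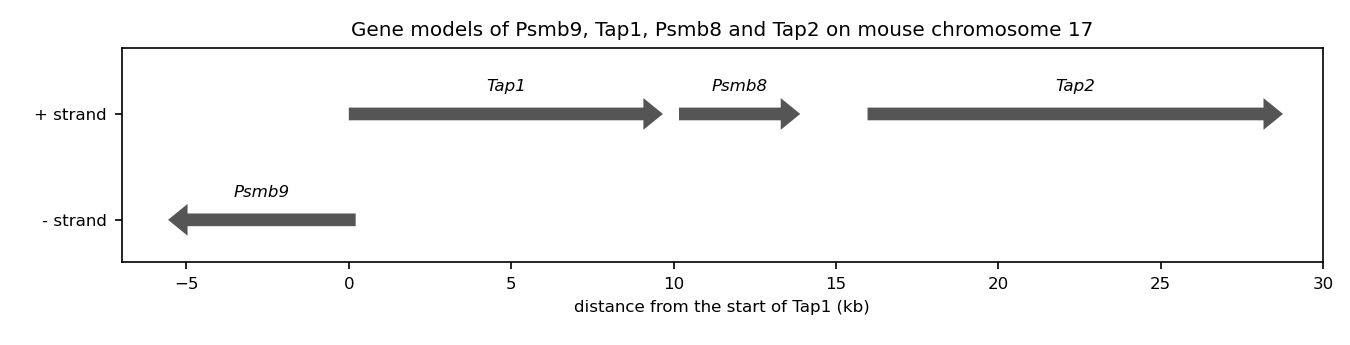
Gene models of Psmb9, Tap1, Psmb8 and Tap2 as arrows pointing in the direction of transcription, by strand; the horizontal axis is the distance from the start of Tap1 in kb. Psmb9 and Tap1 run away from each other from overlapping 5′ ends, and Psmb8 and Tap2 follow Tap1 on the plus strand.

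RefSeq promoter windows of GRCm38.p6, 250 bases before to 50 bases after the start, were at hand for 8 of the 10 members; Tap2 and Tapbpl had none. The windows of Tap1 and Psmb9 share 275 bases, with RefSeq starts 226 bases apart. RefSeq starts differ from the ends of the gene models given above, in which Psmb9 and Tap1 overlap. The Tap1 window (chr17:34187306-34187605, plus strand) therefore holds nearly all of that of Psmb9 and is shown with the stretch between both starts in capitals.
Tap1: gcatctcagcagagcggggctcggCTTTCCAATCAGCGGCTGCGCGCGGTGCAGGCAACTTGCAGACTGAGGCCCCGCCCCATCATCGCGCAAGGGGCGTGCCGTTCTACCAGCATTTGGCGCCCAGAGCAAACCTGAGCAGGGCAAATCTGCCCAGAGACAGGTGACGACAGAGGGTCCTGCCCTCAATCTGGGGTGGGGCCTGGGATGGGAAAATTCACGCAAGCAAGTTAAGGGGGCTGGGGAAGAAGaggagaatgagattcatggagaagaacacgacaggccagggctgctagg
The windows were searched on both strands for an interferon-stimulated response element, spelled GAAANN followed by GAAA, and for a GAS element (interferon-gamma activated site), spelled TTCNNNGAA, which reads the same on either strand. The first was present in 3.44% and the second in 8.30% of all 32851 windows, and the motifs do not overlap in the member windows. Each of 3 members held 1 match, shown in capitals, with positions counted from the RefSeq start. Psmb8 (chr17:34197945-34198244, plus strand) held the GAS letters beginning at -97. Psme1 (chr14:55578244-55578543, plus strand) and Erap1 (chr13:74639603-74639902, plus strand) held the response element letters beginning at 10 and -4. These 3 windows lie inside the gene models given above, which begin before the RefSeq starts.
Psmb8: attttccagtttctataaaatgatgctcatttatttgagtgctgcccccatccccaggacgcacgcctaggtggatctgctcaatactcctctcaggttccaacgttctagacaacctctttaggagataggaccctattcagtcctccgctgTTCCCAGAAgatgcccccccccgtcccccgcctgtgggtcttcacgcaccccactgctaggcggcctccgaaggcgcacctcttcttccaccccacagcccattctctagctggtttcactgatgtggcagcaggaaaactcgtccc
Psme1: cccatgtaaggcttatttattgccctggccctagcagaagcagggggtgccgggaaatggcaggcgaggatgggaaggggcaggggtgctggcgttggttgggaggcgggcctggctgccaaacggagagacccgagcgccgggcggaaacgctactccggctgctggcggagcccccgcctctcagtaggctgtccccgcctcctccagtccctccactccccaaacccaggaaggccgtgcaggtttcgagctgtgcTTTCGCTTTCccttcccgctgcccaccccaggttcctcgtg
Erap1: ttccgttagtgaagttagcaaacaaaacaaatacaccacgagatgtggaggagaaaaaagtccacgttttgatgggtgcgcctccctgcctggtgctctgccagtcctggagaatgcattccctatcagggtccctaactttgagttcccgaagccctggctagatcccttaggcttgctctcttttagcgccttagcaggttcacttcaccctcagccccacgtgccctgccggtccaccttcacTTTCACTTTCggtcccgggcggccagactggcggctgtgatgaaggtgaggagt
These matches are descriptions of the letters in a 300-base window and were not tied to binding data.

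The libraries kept 2214 and 3110 cells from TAK-981 mice and 4408 and 4130 from vehicle mice, in 23 clusters, and at most 6 cell barcodes were shared by any pair. TAK-981 2 was the deepest, with a median of 12831 UMIs (counted RNA molecules) per cell, against 5024.5 in TAK-981 1, 2269 in vehicle 1 and 4152.5 in vehicle 2. The median mitochondrial share was 6.90% and 5.11% in TAK-981 and 2.93% and 2.71% in vehicle libraries. Clusters were named by marker genes, and 7 classes had enough cells in all libraries: epithelial-like, macrophage or monocyte-like, fibroblast-like, T or NK-like, neutrophil-like, dendritic-like and endothelial-like cells, called by the plain names below. The limit was 30 cells per library, but 15 for dendritic and endothelial cells, which held 29 and 15 in TAK-981 2. In the epithelial class Krt8 was high (1699.5 and 1820 per 1000000 UMIs in TAK-981, against 1380.3 and 1816 in vehicle), while Epcam, the usual epithelial marker, was low at 10.6 and 5.70 in TAK-981 and 11.6 and 0 in vehicle. The class comprised different clusters in each library, and no epithelial cluster had a gene of the epithelial marker list among its 10 leading genes. Cluster 17, with Alb, Hpx and Hp among them, held 434 and 757 cells of TAK-981 and 56 and 14 of vehicle libraries. Cluster 9, led by Cited1 and Prl, held 36 and 44 cells of TAK-981 and 212 and 1512 of vehicle libraries.

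Levels across cell classes came first, as UMIs per 1000000 UMIs of the class in a library (UPM, the plain scale). Psmb8 was highest in dendritic cells, with 1136 and 1070 UPM in TAK-981 and 681 and 446 in vehicle libraries. T or NK cells held 989 and 795 in TAK-981 against 229.6 and 289 in vehicle, and macrophages 582 and 519 against 247 and 172. Then came endothelial cells (289 and 201 in TAK-981, 105 and 50.5 in vehicle), neutrophils (202 and 201, against 78.4 and 56.9) and fibroblasts (166 and 219, against 63.9 and 24.2). Epithelial cells were last by far, with 37.4 and 13.0 in TAK-981 and 3.09 and 1.09 in vehicle libraries. The order of the means was the same in both groups, but endothelial and neutrophil, and neutrophil and fibroblast levels overlapped between libraries of either group, and in vehicle libraries T or NK and macrophage levels did too.

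The distance between the top and the bottom class was smaller in TAK-981 tumours. The dendritic mean of Psmb8 was 1103 ± 46.4 and the epithelial mean 25.2 ± 17.3 in TAK-981 libraries, a ratio of 43.7, against 564 ± 166 and 2.09 ± 1.42 in vehicle libraries, a ratio of 270.03 (SD, n = 2 each). For Psmb9 the ratio of dendritic to epithelial means was 33.0 in TAK-981 and 104 in vehicle. The highest class over the epithelial class gave 16.8 in TAK-981 and 52.5 in vehicle for Tap1, and 8.35 and 26.0 for Tap2. Epithelial cells thus had the lowest mean for Psmb8, Psmb9 and both transporter genes in either group. In TAK-981 libraries, however, neutrophil and epithelial levels overlapped for Tap1 and Tap2. The span was narrower than that of Psmb8 for the other members with a level above 0 in every class: the highest class exceeded the lowest 5.50 and 5.52 times for Psme1, 4.82 and 3.38 times for Psme2, 6.86 and 3.04 times for Psmb10 3.08 and 3.62 times for Tapbp and 7.84 and 7.61 times for Erap1 in TAK-981 and vehicle libraries. For Tapbpl it was 7.88 times in TAK-981 libraries, while in vehicle libraries it was highest in T or NK cells and listed at 0 in neutrophils, which allows no ratio. For Tapbp, neighbouring classes in the order overlapped in 6 of 6 pairs in TAK-981 and 5 of 6 in vehicle libraries, so its order is not resolved. In classes that had enough cells in some libraries only, Psmb8 stood at 104 and 84.5 in acinar cells of TAK-981 tumours and at 229 in B cells of vehicle 1.

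**Figure D2:**
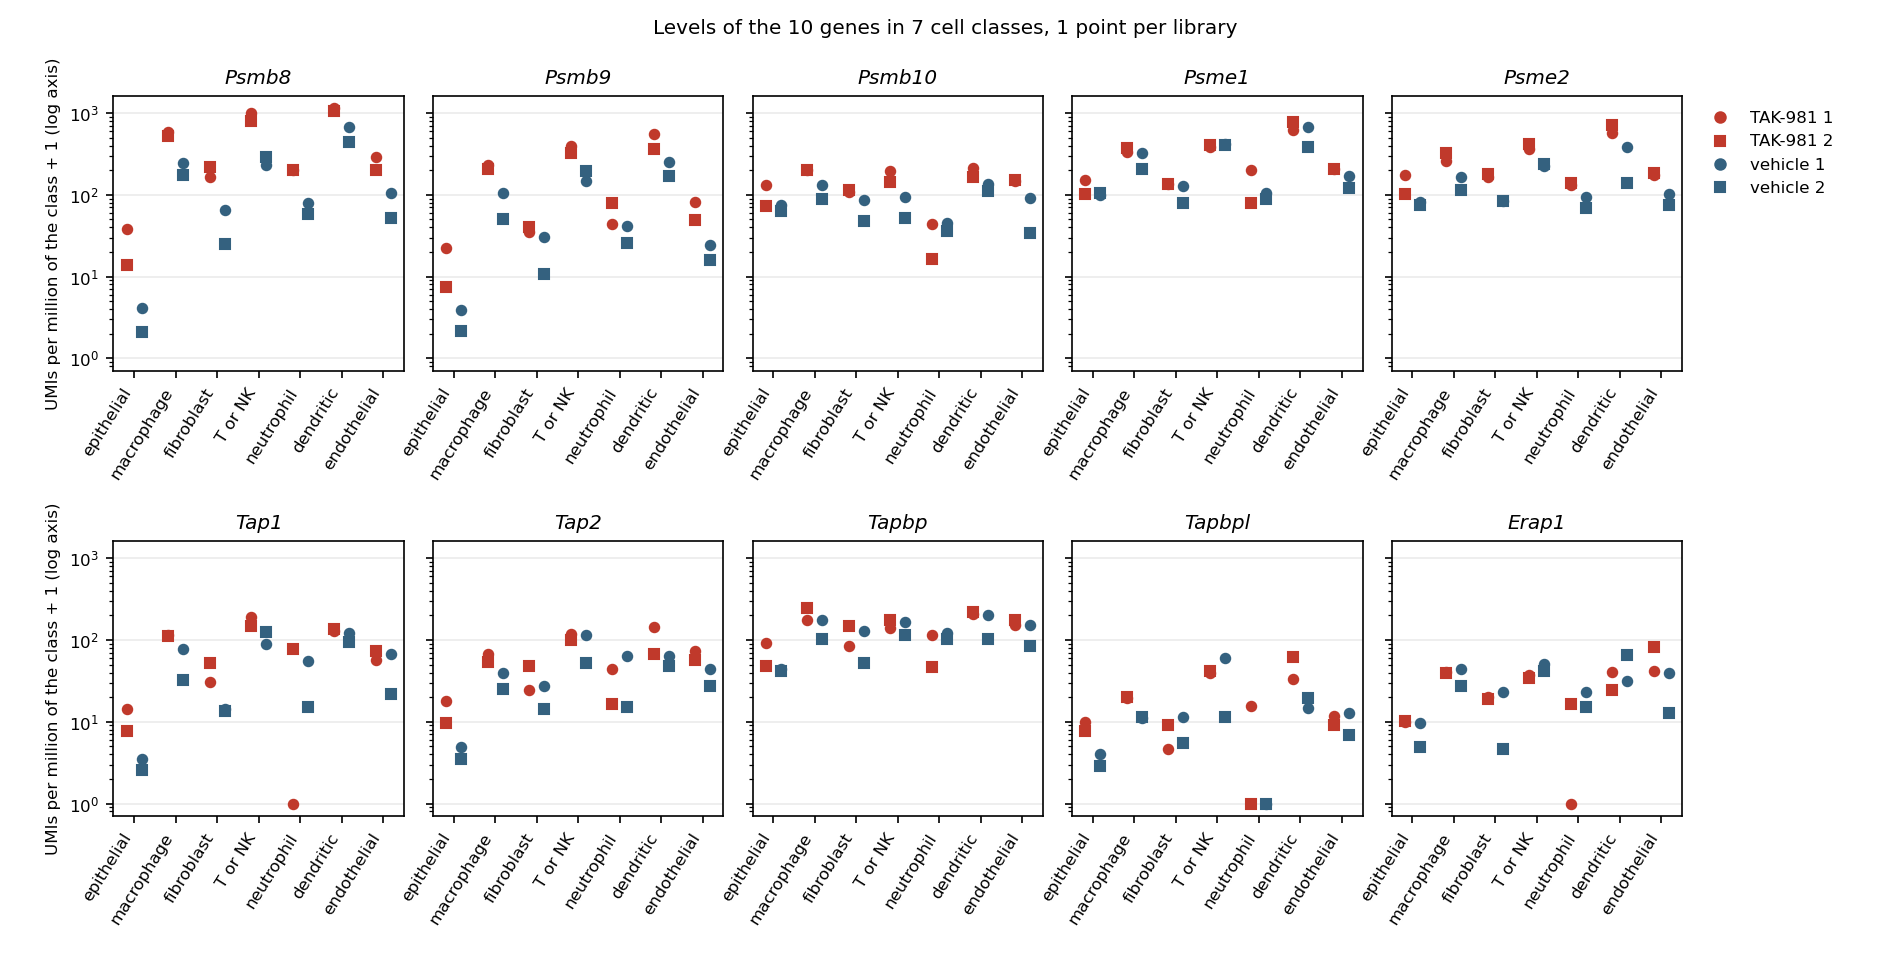
UPM plus 1, on a log axis, for each gene and class; red marks are TAK-981 libraries and blue marks vehicle libraries, with a circle for replicate 1 and a square for replicate 2. Psmb8 runs from 1136 in dendritic cells of TAK-981 1 down to 1.09 in epithelial cells of vehicle 2, while Tapbp stays within a narrow band.

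The treatment comparison used the same sums with library totals scaled by TMM (called CPM below), which sets the median of all genes near 0 in each class. The plain scale differs from it by a shift of all genes towards TAK-981, by 0.51 on the log2 scale in epithelial cells and by 0.03 to 0.29 in the other classes. TAK-981 was set against vehicle within each class with edgeR's quasi-likelihood test, its p-values adjusted by Benjamini-Hochberg over every gene that passed the low-count filter. No member passed an adjusted p of 0.05 in any class. In epithelial cells 0 of 10 members passed, where 2.2% of 12746 genes did, and 5 had an unadjusted p under 0.05, as did 2664 (20.9%) of all genes. In macrophages 0 of 10 passed, where edgeR called 0% of 10373 genes, 4 members and 1405 genes (13.5%) had an unadjusted p under 0.05, and DESeq2 called 47 genes higher and 216 lower. The counts were 0 of 10 with 3 at the unadjusted level in fibroblasts (background 0.992%), 0 of 10 with 2 in T or NK cells (0.166%), 0 of 4 with 1 in neutrophils (0.476%), 0 of 8 with 2 in dendritic cells (4.15%) and 0 of 9 with 4 in endothelial cells (1.82%). At the unadjusted level stood 899 of 8976 genes in fibroblasts, 13.2% in T or NK cells, 13.7% in neutrophils, 14.6% in dendritic cells and 16.2% in endothelial cells. DESeq2 called 4 members in epithelial cells, Psmb8 (adjusted p = 3.71e-05), Psmb9 (0.0129), Tap1 (0.0194) and Tap2 (0.0412), where it called 9.95% of all genes. It also called Psmb8 in macrophages (0.0172), fibroblasts (0.0111) and T or NK cells (0.0489), where it called 2.54%, 1.82% and 1.09% of all genes, and 0 members in the other 3 classes. All of these DESeq2 calls were higher in TAK-981.

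Although no member passed, most estimates lay above 0. The members' median log2 difference was 0.74 in epithelial cells, 0.62 in macrophages, 0.56 in fibroblasts, 0.18 in T or NK cells, 0.58 in neutrophils, 0.47 in dendritic cells and 0.84 in endothelial cells, and the median of all genes lay between -0.01 and 0.04. Members higher in both TAK-981 libraries than in either vehicle library numbered 5 of 10 in epithelial cells (26.9% of all genes tested), 7 of 10 in macrophages (22.9%), 4 of 10 in fibroblasts (20.5%), 5 of 10 in T or NK cells (23.3%), 2 of 4 in neutrophils (22.8%), 4 of 8 in dendritic cells (23.9%) and 6 of 9 in endothelial cells (22.6%). Lower in both TAK-981 libraries were 2 of 10 in T or NK cells (21.9%), Psme1 and Erap1, and 0 elsewhere. Members absent from these counts fell under the low-count filter, 6 of them in neutrophils. The plot of log2 differences shows that Psmb8 was separate in all 7 classes, Psmb9 in 5 of 6, Psmb10 in 5 of 6 and Psme2 in 6 of 7, but Tapbp in 0 of 7 and Erap1 in T or NK cells alone of 5.

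**Figure D3:**
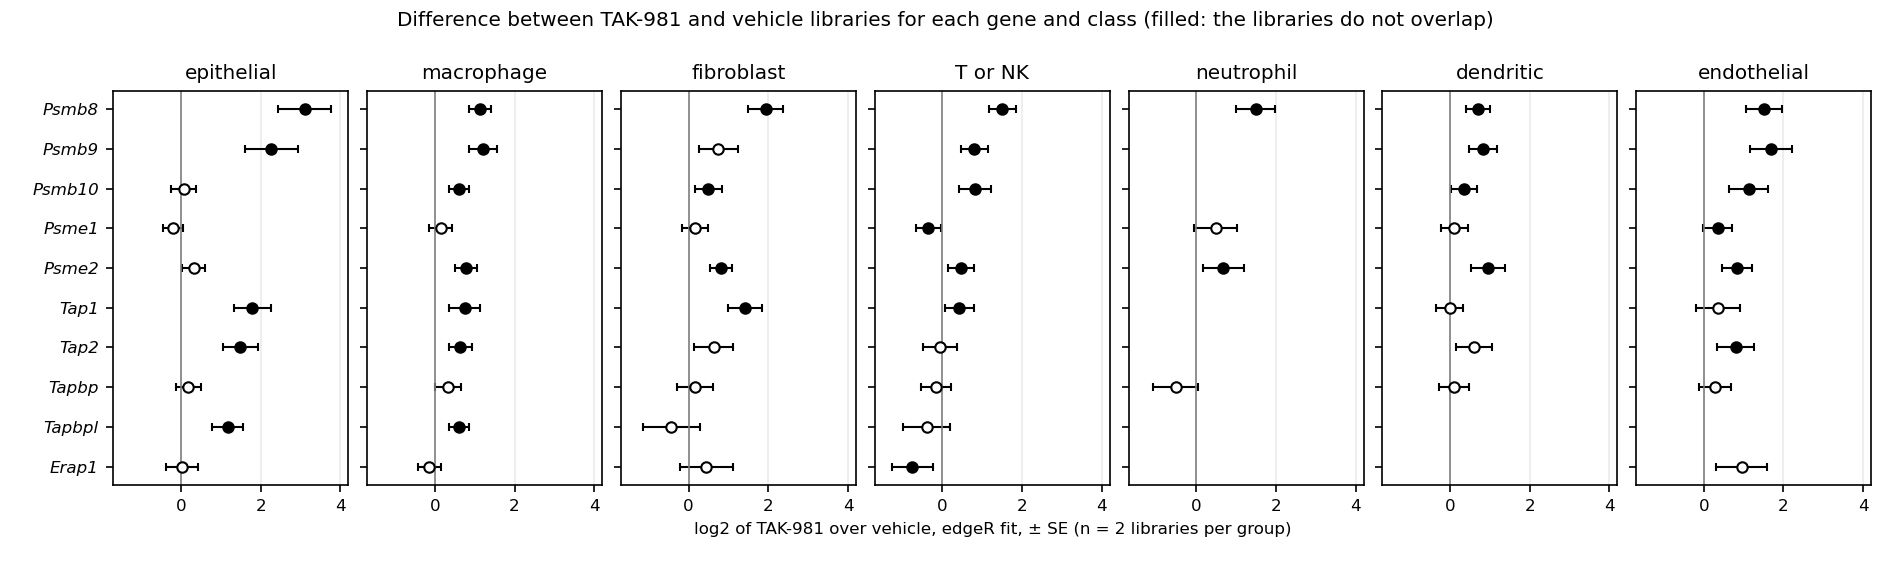
log2 of TAK-981 over vehicle from the edgeR fit with its SE (n = 2 libraries per group) for each member tested in each class; filled points mark members whose TAK-981 libraries do not overlap the vehicle libraries. The largest estimate is 3.11 for Psmb8 in epithelial cells, and the Tapbp points are all open.

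The libraries of 1 group differed from each other as well. Vehicle 1 exceeded vehicle 2 on the TMM scale for 10 of 10 members in macrophages and in fibroblasts, 4 of 4 in neutrophils, 8 of 8 in dendritic cells, 9 of 9 in endothelial cells, 9 of 10 in epithelial cells and 7 of 10 in T or NK cells, where 49.3% to 52.6% of all genes did. The median log2 ratio of vehicle 1 to vehicle 2 over the members was 0.72 in macrophages, 1.05 in fibroblasts, 0.91 in endothelial cells, 0.70 in dendritic cells and 0.58 in epithelial cells. TAK-981 1 exceeded TAK-981 2 for 9 of 10 members in epithelial cells, with a median log2 ratio of 0.85, but for 1 of 10 in fibroblasts and 5 of 10 in macrophages. The result thus depended on which vehicle mouse was kept. Without vehicle 1 the members' median difference was 1.01 in macrophages, 1.05 in fibroblasts, 1.11 in epithelial, 0.62 in T or NK, 0.92 in dendritic and 1.34 in endothelial cells. Without vehicle 2 it was 0.33 in macrophages, 0.084 in fibroblasts, 0.53 in epithelial, 0.019 in T or NK, 0.27 in dendritic and 0.37 in endothelial cells. In epithelial cells it was 0.49 without TAK-981 1. Calls appeared when 1 library was left out, which leaves that group a single library whose spread is assumed to be that of the other group. Without vehicle 1, Psmb9 (adjusted p = 0.0219) and Tap1 (0.0314) in macrophages, Psmb8 in fibroblasts (0.0150) and Psme2 in dendritic cells (0.0054) passed the edgeR test, which then called 1.94%, 1.96% and 4.45% of all genes. Without TAK-981 2, Psmb8, Psmb9 and Tap1 passed in epithelial cells (3.81% of all genes called) and Psmb8 and Psmb9 in endothelial cells (9.29%).

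Psmb8, the inducible subunit with chymotrypsin-like activity, was higher in both TAK-981 libraries in every class. In epithelial cells it stood at 30.8 and 11.1 CPM in TAK-981 and at 3.68 and 1.30 CPM in vehicle libraries, a log2 difference of 3.11 ± 0.67 (edgeR fit ± SE, n = 2 each; adjusted p = 0.0732). These values rest on 635 and 660 UMIs in TAK-981 and on 43 and 23 in vehicle libraries. All vehicle values lay below all TAK-981 values, and the estimate ranged from 2.17 without TAK-981 1 to 3.99 without vehicle 1. In fibroblasts Psmb8 had 155 and 205 CPM in TAK-981 and 70.5 and 26.7 in vehicle libraries (log2 difference 1.94 ± 0.44, edgeR adjusted p = 0.0990). In T or NK cells it had 955 and 820.3 CPM in TAK-981 and 292 and 336 in vehicle libraries (1.51 ± 0.33, adjusted p = 0.0707). Vehicle 1 was nearer to the TAK-981 libraries than vehicle 2 in fibroblasts but not in T or NK cells, where leaving out any library kept the log2 difference between 1.40 and 1.60. That class pools T and NK cells. Its Cd3g stood at 1231 and 1051 UPM in TAK-981 and 514 and 577 in vehicle libraries. Klrb1c stood at 17.9 and 25.8 against 91.8 and 30.9, while Cd3e and Ncr1 overlapped. The part of this mix in the Psmb8 difference was not tested.

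Among the remaining classes, macrophages showed 533 and 476 CPM of Psmb8 in TAK-981 and 277 and 185 in vehicle libraries (1.12 ± 0.28, edgeR adjusted p = 0.163). Endothelial cells showed 302 and 202 CPM in TAK-981 and 126 and 58.4 in vehicle libraries (1.51 ± 0.44, edgeR adjusted p = 0.126). Without TAK-981 2, which leaves 1 library in that group, the log2 difference was 1.68. In dendritic cells the values were 1175 and 1090.2 CPM in TAK-981 and 847 and 519.7 in vehicle libraries (0.70 ± 0.30, adjusted p = 0.317). The class with the highest level thus had the smallest of the 7 estimates. Neutrophils held 219 and 232 CPM in TAK-981 and 96.9 and 60.1 in vehicle libraries (1.50 ± 0.49, edgeR adjusted p = 0.211), from 14 and 13 UMIs in TAK-981 and 35 and 16 in vehicle libraries.

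RNA of other cells was measured beside these values, because epithelial Psmb8 was only 6.43% and 2.50% of the macrophage level in TAK-981 and 1.25% and 0.633% in vehicle libraries. The 10 macrophage markers summed to 680 and 199 UPM in epithelial cells of TAK-981 and to 150.3 and 92.8 in those of vehicle libraries. Of these markers 7 of 10 were higher in both TAK-981 libraries and none was at 0. That sum was 2.36% and 0.906% of the macrophages' own in TAK-981 and 1.08% and 0.494% in vehicle libraries. The same share of the macrophages' Psmb8 would be 13.7 of the 37.4 and 4.70 of the 13.0 UPM in TAK-981, and 2.68 of the 3.09 and 0.848 of the 1.09 in vehicle libraries. In vehicle libraries the epithelial level was thus close to that share, and in both TAK-981 libraries it was above it. With epithelial cells that held any macrophage marker UMI left out, the log2 difference of Psmb8 was 1.92 ± 0.63 (edgeR adjusted p = 0.161) in place of 3.11. A cell with more UMIs was more likely to hold such a UMI and be left out. Median UMIs ran from 2005.5 in epithelial cluster 12 to 24786 in cluster 17, so the filter also changed which cells were compared. The 8 neutrophil markers were also higher in epithelial cells of both TAK-981 libraries, at 127 and 53.0 UPM against 18.7 and 21.3 in vehicle libraries. The 12 acinar markers summed to 235 and 92.7 UPM in TAK-981 and 23.7 and 5.24 in vehicle epithelial cells. In macrophages the acinar markers summed to 531 and 245 in TAK-981 and 45.0 and 31.6 in vehicle libraries, while the sums of the epithelial markers overlapped. In fibroblasts the macrophage markers summed to 1089 and 208 in TAK-981 and 63.9 and 48.4 in vehicle libraries, or 3.77% and 0.948% against 0.461% and 0.258% of the macrophages' sum, with 7 of 10 higher in both TAK-981 libraries. In endothelial cells they summed to 1313 and 827 in TAK-981 and 31.0 and 122 in vehicle libraries, and in T or NK cells to 553 and 232 against 326 and 794. The part of these markers' cells in the Psmb8 differences was not tested beyond these values.

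Psmb9, the inducible subunit that shares its promoter stretch with Tap1, had a pattern like that of Psmb8 in epithelial cells and a smaller estimate in fibroblasts. In epithelial cells it had 17.5 and 5.52 CPM in TAK-981 and 3.42 and 1.41 in vehicle libraries (2.27 ± 0.68, edgeR adjusted p = 0.135). In macrophages it had 209 and 187 CPM in TAK-981 and 115 and 53.7 in vehicle libraries (1.21 ± 0.35, adjusted p = 0.221). Endothelial cells gave 83.4 and 48.5 CPM in TAK-981 and 28.0 and 17.2 in vehicle libraries (1.68 ± 0.53, adjusted p = 0.155). The endothelial values rest on few UMIs, 37 and 6 in TAK-981 and 6 and 5 in vehicle libraries. Psmb9 was separate in T or NK cells (378 and 336 CPM in TAK-981, 187 and 228 in vehicle libraries) and dendritic cells (567 and 373, against 316 and 195) as well. In fibroblasts the groups overlapped, at 31.8 and 37.1 CPM in TAK-981 and 32.8 and 10.9 in vehicle libraries.

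Psmb10, the third inducible subunit, did not follow in epithelial cells: 108 and 61.1 CPM in TAK-981 lay around 87.7 and 73.8 in vehicle libraries (0.07 ± 0.31, edgeR adjusted p = 0.929). In the other 5 classes tested it was higher in both TAK-981 libraries, by 0.35 to 1.12 on the log2 scale with adjusted p between 0.295 and 0.711. The largest of these was in endothelial cells, with 153 and 154 CPM in TAK-981 and 107 and 37.8 in vehicle libraries. Macrophages had 183 and 186 CPM in TAK-981 and 147 and 95.1 in vehicle libraries, so the TAK-981 libraries were alike and the vehicle libraries apart.

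Each inducible subunit was then set against the subunit it replaces, as the log2 ratio of their UMIs in a library, a within-library measure that does not depend on scaling. Psmb8 over Psmb5 in epithelial cells was -3.17 and -4.21 in TAK-981 and -5.83 and -7.31 in vehicle libraries, a difference of 2.88. Psmb9 over Psmb6 was -3.49 and -4.86 in TAK-981 and -5.85 and -7.08 in vehicle libraries, a difference of 2.29. Both groups were separate, and the exact two-sided permutation test of 2 against 2 libraries gave p = 0.33, the smallest value this design allows. Leaving out 1 library in turn gave differences of 2.14 to 3.62 for Psmb8 and 1.61 to 2.98 for Psmb9. Psmb10 over Psmb7 was -1.22 and -1.69 in TAK-981 and -1.37 and -1.11 in vehicle libraries, which overlap (difference -0.22, exact permutation p = 0.667). In epithelial cells the constitutive partner Psmb5 was itself little different, at 278 and 205 CPM in TAK-981 and 211 and 211 in vehicle libraries (0.20 on the log2 scale).

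In macrophages, Psmb8 over Psmb5 was 1.24 and 1.32 in TAK-981 and 0.97 and 0.60 in vehicle libraries, a difference of 0.49 that ran from 0.31 without vehicle 2 to 0.68 without vehicle 1. This is less than the 1.12 of Psmb8 alone, as Psmb5 was also higher in TAK-981, with 226 and 191 CPM against 141 and 122 in vehicle libraries (0.66, edgeR adjusted p = 0.276). Psmb9 over Psmb6 was -0.31 and -0.46 in TAK-981 and -0.82 and -1.72 in vehicle macrophages, a difference of 0.89 and separate. The difference was 0.44 without vehicle 2 and 1.33 without vehicle 1. In fibroblasts Psmb8 over Psmb5 was -1.18 and -0.24 in TAK-981 and -1.34 and -2.83 in vehicle libraries, also separate, by 1.38 (exact permutation p = 0.33), and by 0.64 without vehicle 2 and 2.12 without vehicle 1. In T or NK cells the same ratio overlapped, with 1.67 and 1.89 in TAK-981 and 1.90 and 1.08 in vehicle libraries (exact permutation p = 1). There Psmb5 had 300.0 and 220.3 CPM in TAK-981 and 75.8 and 156 in vehicle libraries, so both subunits were higher. The vehicle values of Psmb5 rest on 13 UMIs in each library. Psmb10 over Psmb7 was separate in T or NK cells, with 0.62 and 0.22 in TAK-981 and 0.15 and -0.63 in vehicle libraries, a difference of 0.66 (exact permutation p = 0.33) that ran from 0.27 without vehicle 2 to 1.05 without vehicle 1. Its vehicle ratios rest on few UMIs, 20 and 5 of Psmb10 and 18 and 8 of Psmb7. Neutrophil ratios overlapped for all 3 pairs.

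**Figure D4:**
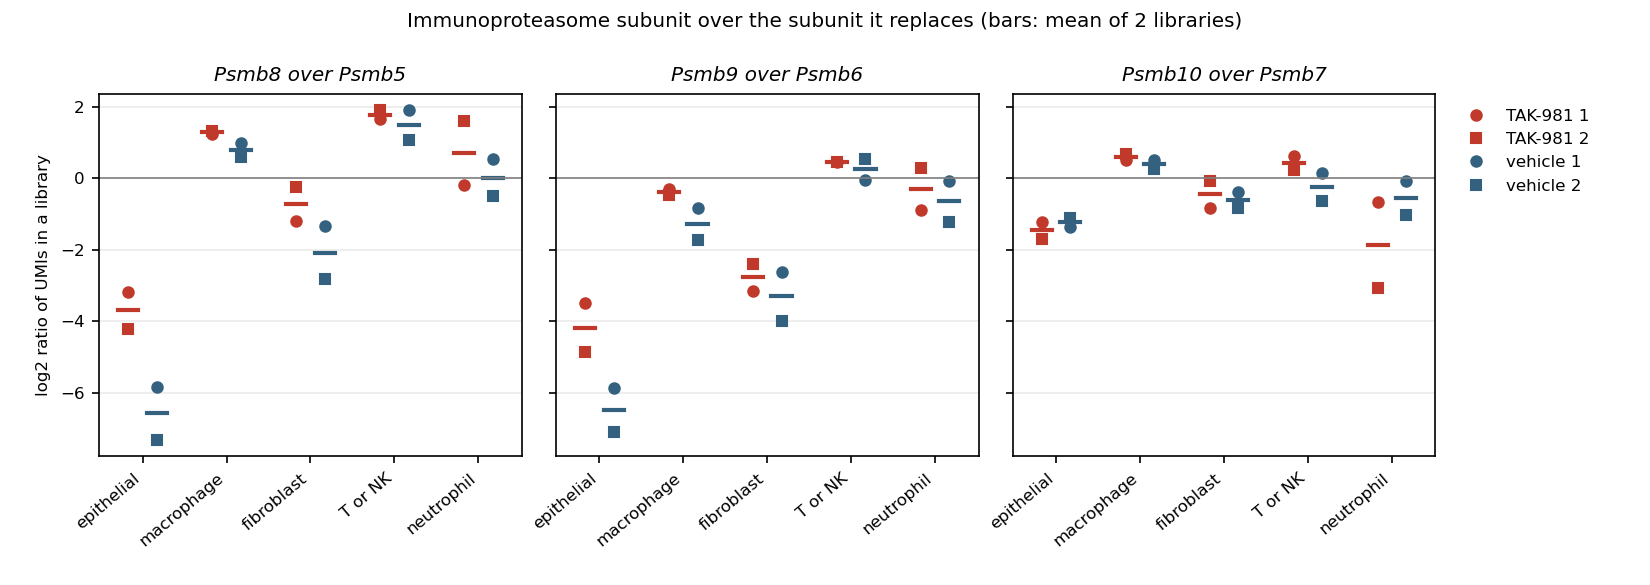
log2 ratio of the UMIs of each inducible subunit to those of the constitutive subunit it replaces, per library; red marks are TAK-981 and blue marks vehicle libraries, and bars are means of 2 libraries. Epithelial cells lie lowest for Psmb8 and Psmb9, with TAK-981 above vehicle by 2.88 and 2.29, and show no such gap for Psmb10.

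The activator subunits, which work together in 1 ring, differed in pattern. Psme2 was higher in both TAK-981 libraries in 6 of 7 classes. Macrophages had 236 and 292 CPM in TAK-981 and 186 and 122 in vehicle libraries (0.78 ± 0.28, edgeR adjusted p = 0.297), and fibroblasts had 155 and 166 against 91.8 and 91.0 (0.81 ± 0.28, adjusted p = 0.337). The fibroblast values of Psme2 were close together within each group, in contrast to those of Psmb8. Dendritic cells showed 597 and 732 CPM in TAK-981 and 476 and 162 in vehicle libraries (0.95 ± 0.43, adjusted p = 0.352), and this estimate was 2.02 without vehicle 1. In epithelial cells Psme2 overlapped, at 143 and 86.9 CPM in TAK-981 and 96.4 and 88.0 in vehicle libraries. A retrogene copy, Psme2b, had 430 UMIs over all classes against 16915 for Psme2. How reads shared by the copies were counted is not given in the sources used here, so their effect on these values is not known.

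Psme1 overlapped between the groups in 5 of 7 classes. Macrophages held 308 and 341 CPM of Psme1 in TAK-981 and 363 and 221 in vehicle libraries (0.15 ± 0.29, edgeR adjusted p = 0.863). Endothelial cells had 216 and 210.2 CPM in TAK-981 and 200.4 and 137 in vehicle libraries (0.35 ± 0.36, adjusted p = 0.689). T or NK cells had 372 and 416 CPM in TAK-981 and 537 and 468 in vehicle libraries (-0.36 ± 0.31, adjusted p = 0.670), but on the plain scale their 385 and 403 UPM in TAK-981 overlapped 422 and 402 in vehicle libraries. No direction of Psme1 is therefore given. The neighbouring genes Psme1 and Psme2 thus differed in how many classes were separate, 2 of 7 against 6 of 7; the difference between the 2 genes was not tested.

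Tap1 and Tap2 encode the subunits of the peptide transporter. In epithelial cells Tap1 had 11.1 and 5.65 CPM in TAK-981 and 3.00 and 1.86 in vehicle libraries (1.79 ± 0.47, edgeR adjusted p = 0.107). Tap2 had 14.0 and 7.35 CPM in TAK-981 and 4.71 and 2.94 in vehicle libraries (1.49 ± 0.43, adjusted p = 0.130). Both were separate there, and both stood highest in TAK-981 1. With epithelial cells holding macrophage marker UMIs left out, a filter that drops deeper cells more often, the log2 difference was 0.78 for Tap1 and 1.78 for Tap2. The macrophage marker share corresponds to 2.67 of the 13.5 and 1.00 of the 6.61 UPM of Tap1 in TAK-981, and to 0.827 of the 2.51 and 0.156 of the 1.56 in vehicle libraries.

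In fibroblasts Tap1 was separate, with 27.6 and 48.0 CPM in TAK-981 and 14.7 and 13.8 in vehicle libraries (1.40 ± 0.42, edgeR adjusted p = 0.237), while Tap2 overlapped, with 22.1 and 43.5 against 29.5 and 14.8. In macrophages Tap1 had 104 and 101 CPM in TAK-981 and 85.7 and 34.0 in vehicle libraries (0.75 ± 0.39, adjusted p = 0.451). The log2 difference of Tap1 there was 1.59 without vehicle 1. Tap2 had 60.3 and 48.7 CPM in TAK-981 and 43.1 and 26.1 in vehicle macrophages (0.63 ± 0.29, adjusted p = 0.398). In dendritic cells, where Tap1 was high in all libraries, it had 131 and 139 CPM in TAK-981 and 150.2 and 108 in vehicle libraries (-0.01 ± 0.33, adjusted p = 0.996). T or NK cells were separate for Tap1 (182 and 154 CPM in TAK-981, 111 and 144 in vehicle libraries) but not for Tap2 (112 and 101, against 146 and 60.0).

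The loading factor Tapbp overlapped between the groups in every class, with log2 differences from -0.51 in neutrophils to 0.32 in macrophages and adjusted p of at least 0.703 in edgeR. In macrophages Tapbp had 159 and 223 CPM in TAK-981 and 194 and 111 in vehicle libraries, and in epithelial cells 74.5 and 39.8 against 51.3 and 49.3. Its relative Tapbpl, a peptide editor, was lower in level and passed the low-count filter in 4 classes. In epithelial cells Tapbpl had 7.43 and 5.72 CPM in TAK-981 and 3.68 and 2.20 in vehicle libraries (1.17 ± 0.40, edgeR adjusted p = 0.168). In macrophages Tapbpl had 17.2 and 17.5 CPM in TAK-981 and 11.4 and 11.3 in vehicle libraries (0.61 ± 0.26, adjusted p = 0.367). The macrophage libraries of each group were nearly equal for Tapbpl, which overlapped in fibroblasts and T or NK cells.

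Erap1, which trims peptides in the endoplasmic reticulum, was tested in 5 classes. In epithelial cells Erap1 had 7.38 and 7.79 CPM in TAK-981 and 10.2 and 4.74 in vehicle libraries (0.03 ± 0.40, edgeR adjusted p = 0.972). T or NK cells had 34.6 and 34.2 CPM in TAK-981 and 64.2 and 48.0 in vehicle libraries (-0.75 ± 0.50, adjusted p = 0.556), the single class in which Erap1 was separate, and they were lower in both TAK-981 libraries on the plain scale too. Both scales use the same few UMIs, 12 and 18 in TAK-981 and 11 and 4 in vehicle libraries. In macrophages Erap1 had 36.1 and 35.3 CPM in TAK-981 and 48.8 and 28.6 in vehicle libraries, so the vehicle libraries enclosed the TAK-981 libraries.

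Whether the effect of TAK-981 differed between classes was tested by the class by treatment term of a joint edgeR fit with library as a block. Between epithelial cells and macrophages, 0 of 10 members passed, where 0.0992% of 13099 genes did, 2 had an unadjusted p under 0.05, and DESeq2 called 0. The epithelial minus the macrophage log2 difference was 2.00 ± 0.53 for Psmb8 (adjusted p = 0.263), 0.95 ± 0.42 for Tap1 (0.489), 0.94 ± 0.52 for Psmb9 (0.574), 0.87 ± 0.33 for Tap2 (0.423) and -0.51 for Psmb10. The larger epithelial estimates of Psmb8 and the transporter genes are therefore not shown to differ from those of macrophages. Leaving out 1 library gave between 0 and 4 members called, the 4 without TAK-981 2, when 7.5% of 13386 genes were called. Between fibroblasts and macrophages 0 of 10 members passed, where 0.174% of 10946 genes did, 1 had an unadjusted p under 0.05, DESeq2 called 0, and Psmb8 differed by 0.87 ± 0.37 (adjusted p = 0.932).

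Since the libraries differed in their clusters, levels were also read within single clusters, on the plain scale. Cluster 3, epithelial cells led by replication histone genes, had 88 and 518 cells in TAK-981 and 452 and 190 in vehicle libraries. Its Psmb8 level was 5.14 and 3.85 UPM in TAK-981 and 1.45 and 2.00 in vehicle libraries, from 12 and 58 UMIs in TAK-981 and 13 and 5 in vehicle libraries. An edgeR fit of this cluster alone gave a log2 difference of 1.01 ± 0.53 for Psmb8 (adjusted p = 0.291) and -0.07 for Psmb9, and the members' median was 0.04. In cluster 3 the members' median was thus close to the middle of all genes. The other epithelial clusters with at least 30 cells in every library, 9 and 12, were not fitted alone. Epithelial cluster 17 held 40.2 and 12.8 UPM of Psmb8 in TAK-981 and 9.56 in vehicle 1, from 519 and 322 UMIs in TAK-981 and 9 in vehicle 1. With this cluster left out of the epithelial class, an alternative chosen after seeing the data, Psmb8 had 24.2 and 11.1 CPM in TAK-981 and 3.07 and 1.31 in vehicle libraries (3.01 ± 0.55, edgeR adjusted p = 0.0313). That fit called 1 of 10 members and 3.81% of 12550 genes, and gave 1.81 for Psmb9, 1.59 for Tap1 and 1.28 for Tap2, with adjusted p between 0.114 and 0.181. The remaining class still differed in its clusters between the groups. Cluster 20, led by Fabp1 and Gkn2, held 14 and 381 cells of TAK-981 and 2 and 1 of vehicle libraries. Of the 338 Psmb8 UMIs of TAK-981 2 in that fit, 224 came from cluster 20. Cluster 9 held 27.5 and 13.8 in TAK-981, from 8 and 4 UMIs, and 1.27 and 0.840 in vehicle libraries. Cluster 12, led by mt-Atp8 and Lars2, held 27.2 and 7.75 in TAK-981 and 2.73 and 4.54 in vehicle libraries. Psmb8 was thus higher in both TAK-981 libraries in each of the 3 epithelial clusters with at least 30 cells in every library, at different sizes and on few UMIs.

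The macrophage clusters of that size were separate too. Cluster 2, led by Cd163, Ccl8 and Cbr2, held 548 and 398 UPM of Psmb8 in TAK-981 and 181 and 165 in vehicle libraries, and the edgeR fit of this cluster gave 1.31 ± 0.28 (adjusted p = 0.0584), with a members' median of 0.66. Cluster 0, with Ccl24, Chil3 and Ccr2 among its leading genes, held 627 and 480 in TAK-981 and 260.0 and 187 in vehicle libraries. A small cluster with Ifit2 and Rsad2, genes known to be induced by interferon, among its leading genes held 22 and 94 cells of TAK-981 and 27 and 1 of vehicle libraries, and Psmb8 stood at 1008 UPM in its TAK-981 2 cells. The Psmb8 estimate in cluster 2 was thus no smaller than the 1.12 over the class. Of the 10 members, 6 were higher in both TAK-981 libraries in cluster 0, 7 in cluster 2, 5 in cluster 3, 8 in cluster 9 and 6 in cluster 12 on this scale. Over the whole classes, 59.9% of genes in the epithelial class and 42.5% in the macrophage class were, and shares within single clusters are not given here.

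**Figure D5:**
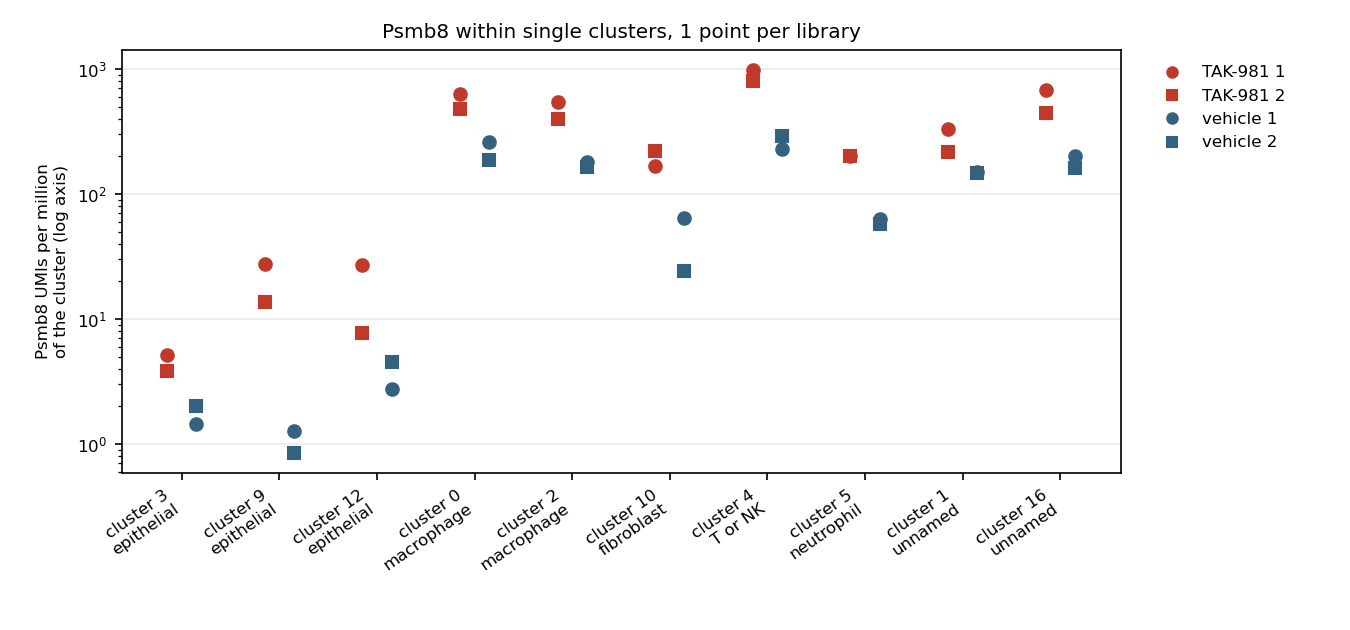
Psmb8 UMIs per 1000000 UMIs of the cluster, on a log axis, in clusters with at least 30 cells in every library; red marks are TAK-981 and blue marks vehicle libraries, with a circle for replicate 1 and a square for replicate 2. Every cluster plotted has both TAK-981 libraries above both vehicle libraries. TAK-981 levels are lowest in epithelial cluster 3 (5.14 and 3.85, against 1.45 and 2.00 in vehicle) and highest in T or NK cluster 4 (989 and 795, against 229.6 and 289).

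The other genes of the pathway, a list of 21 in 6 groups, gave the setting. By edgeR 0 rose and 0 fell in any class, with between 1 (neutrophils) and 8 (macrophages) at an unadjusted p under 0.05. DESeq2 called 3 higher in epithelial cells (Calr, H2-D1 and H2-K1), 2 in macrophages (Calr and H2-D1), 1 in fibroblasts (H2-D1), 2 in endothelial cells (H2-D1 and H2-K1) and 0 in the other 3 classes. Higher in both TAK-981 libraries on the TMM scale were 7 of 21 in epithelial cells with 5 lower (median log2 difference 0.20), 11 of 21 in macrophages with 3 lower (0.43), 5 of 20 in fibroblasts with 3 lower (0.18) and 9 of 19 in T or NK cells with 2 lower (0.28). The counts were 3 of 15 in neutrophils with 3 lower, 9 of 16 in dendritic cells with 3 lower and 8 of 19 in endothelial cells with 2 lower. Of all genes tested, 20.5% to 26.9% by class were higher in both TAK-981 libraries and 20.7% to 26.9% lower. The class I molecules H2-K1, H2-D1 and B2m, which carry the peptides, were 3 of 3 higher in epithelial cells, macrophages, fibroblasts, dendritic cells and endothelial cells. In T or NK cells 2 of 3 were, and in neutrophils 1 of 3. H2-D1, named after its values were seen, had 341 and 209.8 CPM in TAK-981 and 101 and 83.2 in vehicle epithelial cells (1.58 ± 0.30, edgeR adjusted p = 0.0558). H2-D1 in fibroblasts had 561 and 801 CPM in TAK-981 and 234 and 161 in vehicle libraries (1.79 ± 0.35, adjusted p = 0.0558). The H2-D1 estimate was thus below those of Psmb8 (3.11) and Tap1 (1.79) in epithelial cells. In fibroblasts it lay between those of Tap1 (1.40) and Psmb8 (1.94). It passed edgeR's test in neither class, and the differences between these genes were not tested.

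Across 20 sums of 5 classes and 4 libraries, genes whose log2 level (UPM plus 1) followed the members' mean closely included H2-K1 (Pearson r = 0.915), B2m (0.908), Sec11c (0.896), Oaz1 (0.863), Scp2 (0.842), Rap1a (0.839) and Capzb (0.822), out of 1750 genes tested in all these classes. These sums share libraries and depth, and the values describe likeness over cell classes as well as treatment. Each member's own correlation with the mean of the rest lay between 0.60 for Psmb10 and 0.91 for Psmb9.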

How the data were processed

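Single-cell 3′ RNA libraries (10x Genomics v3.1, per the labels' protocols) of 4 tumours were deposited as raw counts of UMIs for each gene in each barcode; the submitters' processing notes name Cell Ranger 6.1.2 and mm10. Samples were grouped by the treatment label. Cells needed 500 UMIs, 250 genes and no more than 20% mitochondrial UMIs, and those with the highest Scrublet scores were removed at 0.8% per 1000 cells (41 and 81 from TAK-981, 168 and 146 from vehicle libraries). Scanpy 1.11.5 clustered the cells (2000 variable genes, of which 0 were members, 30 components, 15 neighbours, Leiden resolution 1, random seed 0). Clusters were named by marker lists with at least 3 markers in 10% of cells, and 4 clusters were left unnamed: 1 had more markers of another list among its 10 leading genes, and the other 3 had none of their own there and a median depth of 0.19 to 0.32 of their libraries'.

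Within each class, the counts of a library's cells were added up and tested with edgeR 4.0.16 (glmQLFit and glmQLFTest, filterByExpr, TMM, R 4.3.3), with Benjamini-Hochberg adjustment over all genes at 0.05. DESeq2 1.42.0 was an alternative. Subunit ratios added 0.5 to each sum and used exact two-sided permutation tests over the libraries. The fits were tested on simulated counts. Depth per library was 26376608 and 63898760 UMIs in TAK-981 and 24411656 and 29041348 in vehicle libraries. UMIs of 1 tumour are not replicates: p-values measure the spread between 2 mice per group, and small sums carry counting error. All 10 members, 21 other pathway genes in 6 groups and the 8 genes most like the members were to be named, of which 1 gene is not reported here. The members and lists were chosen with earlier results of these data known. Alternatives were other size factors, no low-count filter, no doublet removal, 1000 UMIs, 10% mitochondrial UMIs, clustering without the members and related genes, a replicate block, thinned sums, cells with UMIs of macrophage markers (for macrophages, epithelial markers) left out, a transcript length trend, 1 added to each sum and leaving out each library. Gene positions came from GENCODE (GRCm38) and promoter windows from RefSeq (GRCm38.p6).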

Additional observations from a re-analysis of the deposited data

Results flagged for a closer look

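Psme1 was higher in both TAK-981 libraries in endothelial cells (log2 difference 0.35) and lower in both in T or NK cells (-0.36), so that every library of 1 class lay on the opposite side to those of the other. The difference between these classes was not tested, and neither value passed edgeR's test. On the plain scale the T or NK libraries overlapped.

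Clusters with no class name entered no comparison. In cluster 1, which has Arg1 and Mmp12 among its leading genes, Psmb8 had 329.9 and 216 UPM (UMIs per 1000000 UMIs of the cluster) in TAK-981 and 149 and 147 in vehicle libraries, a log2 ratio of means of 0.88. In cluster 16 it had 676 and 448 in TAK-981 and 201 and 161 in vehicle libraries, a log2 ratio of 1.64.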

How the results depend on the processing

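With the main settings, no member passed edgeR's test in the fits of whole classes over all libraries. The marker filter named below left out cells with UMIs of macrophage markers (for macrophages, epithelial markers), which a deeper cell was more likely to hold. DESeq2 called 4 in epithelial cells and 1 each in macrophages, fibroblasts and T or NK cells. With no low-count filter 4 were called in epithelial cells (9.55% of all genes), 2 in fibroblasts (2.51%), 1 in T or NK cells (1.04%), 1 in endothelial cells (2.66%) and 1 between epithelial cells and macrophages (1.14%). With epithelial cluster 17 left out 1 was called. Leaving out 1 library gave 0 to 3 in epithelial cells, 0 to 2 in macrophages, 0 to 1 in fibroblasts, 0 to 1 in dendritic cells, 0 to 2 in endothelial cells and 0 to 4 between epithelial cells and macrophages. The replicate numbers do not pair the mice by any label, and same-numbered libraries' deviations correlated at -0.05 to -0.21; with a replicate block 2 members passed in epithelial cells, Psmb8 (adjusted p = 0.0105) and Psmb9 (0.0294), where 3.73% of all genes did. With the numbers crossed, an alternative chosen after seeing the data, 1 passed in fibroblasts (1.89% of all genes) and 1 in dendritic cells (8.87%). The cause of these differences was not tested. The difference in log2 subunit ratio was -0.19 (at least 1000 UMIs) and 0.63 (marker filter) for Psmb9 in T or NK cells, 1.56 (1000 UMIs) and 1.30 (10% mitochondrial UMIs) for Psmb9 in neutrophils, and 1.78 for Psmb8 in epithelial cells with the marker filter.

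Over all members, classes and alternatives other than leaving out a library, 670 single-gene values kept their direction and side of the threshold, 20 passed it and 27 changed sign. In epithelial cluster 3, fitted alone after seeing the data, Psmb9 was -0.068, Psmb10 -0.10, Tapbp -0.41 and Erap1 -0.10; with cluster 17 left out Psmb10 was -0.26 and Tapbp -0.10; Psmb10 was -0.0065 with the length trend removed, and Erap1 was -0.040 without doublet removal, -0.015 at 1000 UMIs and -0.22 with the marker filter. In fibroblasts Psme1 was -0.043 with the length trend removed and Tapbp -0.075 with the marker filter. In T or NK cells Tap2 was 0.083 with no low-count filter, 0.24 at 1000 UMIs, 0.021 with the members left out of clustering, 0.064 with the replicate block and 0.12 with the marker filter, and Tapbp was 0.30 with thinned sums. In neutrophils Psme1 was -0.25 with the marker filter and Tapbp 0.19 at 1000 UMIs. In dendritic cells Psme1 was -0.051 with thinned sums and -0.047 with the length trend removed, Tap1 was 0.0025 in DESeq2, 0.026 with the replicate block, 0.20 with thinned sums and 0.033 with crossed numbers, and Tapbp was -0.013 at 1000 UMIs.

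Leaving out 1 library changed the sign of these log2 differences, given as ranges. In epithelial cells Psmb10 ran from -0.42 to 0.39, Psme1 from -0.53 to 0.0054, Psme2 from -0.11 to 0.59, Tapbp from -0.36 to 0.53 and Erap1 from -0.43 to 0.66. In macrophages Psme1 ran from -0.17 to 0.56, Tapbp from -0.023 to 0.79 and Erap1 from -0.46 to 0.32. In fibroblasts Psme1 ran from -0.17 to 0.53, Tapbp from -0.37 to 0.91, Tapbpl from -1.15 to 0.18 and Erap1 from -0.51 to 2.10. In T or NK cells Tap2 ran from -0.46 to 0.86, Tapbp from -0.41 to 0.31 and Tapbpl from -0.93 to 1.74, and in neutrophils Psme1 from -0.27 to 0.81. In dendritic cells Psme1 ran from -0.31 to 0.67, Tap1 from -0.21 to 0.31, Tap2 from -0.15 to 1.01 and Tapbp from -0.28 to 0.85. In endothelial cells Tap1 ran from -0.37 to 1.34 and Tapbp from -0.18 to 0.73. The marker filter was not run in dendritic or endothelial cells, nor 10% mitochondrial UMIs in endothelial cells, as too few cells remained. Neutrophil values rest on few UMIs, from 13 to 35 per library for Psmb8.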
